A study of Mus musculus with 21 samples.

Results

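Cells given sgRNAs against *Zbtb1* were compared directly with cells given sgRNAs against *Cbfa2t3* in 6 QuantSeq libraries, the 3 labelled sgZbtb1 and the 3 labelled sgCbfa2t3, of 21 samples in the series. QuantSeq reads each mRNA near its 3′ end, so that longer transcripts do not yield more reads. All libraries came from cultured *Ebf1*-deficient lymphoid progenitors (LPs) of C57BL6/J mice, a cell line kept on OP9 stromal cells with SCF, IL-7 and Flt3L and without Notch stimulation, and expressing Cas9. The cells received a pool of 2 sgRNAs against *Zbtb1* or against *Cbfa2t3*, and were sorted as doubly marked transduced cells 5 days later. 3 sgControl libraries, from cells with sgRNAs against luciferase, carried the same *Ebf1* deletion and Cas9, and are used here as a reference level, given by their values and with no test against them in the text. Because the sgRNAs were given to a population and not to isolated clones, each library can hold edited and unedited cells. Because the cells are a culture and not primary cells, p-values measure the spread between cultures and not between animals.

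Lmo2 is an adaptor without DNA binding of its own that joins E proteins, GATA factors and the Ldb1 protein into a transcriptional complex in blood progenitors. Cbfa2t3 (Eto2) is a corepressor of the ETO family that joins such complexes and recruits histone deacetylases, and Zbtb1 is a zinc finger protein with a BTB domain that mice need for the development of T and NK cells. In lymphoid progenitors T-lineage entry starts with Notch signaling and the induction of *Tcf7*, and the B-lineage program depends on *Ebf1*, which this line lacks. The comparison asks which genes set the libraries targeted at the zinc finger partner apart from those targeted at the corepressor.

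The 6 libraries held 1751378 to 2091514 reads, and a floor of 3 reads, which covers counting error only, corresponds to 1.43 to 1.71 TPM (the study's name for reads scaled to a common library total). Of 55421 genes, 16211 were above 0 in at least 1 of the 6 libraries, and 11427 had a mean above 1 TPM over them and were tested. No library stood apart: Pearson's r of the log2 values, across genes, was 0.957 to 0.966 within groups and 0.954 to 0.960 between them. The progenitor markers *Flt3*, *Il7r*, *Cd93*, *Cd34* and *Dntt* were present in every library, with *Flt3* at 193 to 253 TPM and *Il7r* at 137 to 167 TPM. The progenitor marker *Kit* was lower, at 6.87 to 19.9 TPM, and *Ptprc* was also present in every library. *Rag1* lay near the floor, at 0.956 to 2.68 TPM, and *Rag2* at 1.68 to 4.57 TPM. The stromal markers Col3a1, Dcn, Lum and Pdgfra were at 0 in all 6 libraries. The whole OP9 list of 35 markers had 17 at 0 in all 6 libraries, and its 33 members other than *Igfbp4* and *Tpm2* summed to 7.82 to 10.5 TPM in sgZbtb1 and 11.4 to 19.8 TPM in sgCbfa2t3, while *Igfbp4* stood at 639 to 979 TPM and *Tpm2* at 93.3 to 109.97 TPM in these libraries.

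The targeted genes went against the labels when read as mRNA. *Zbtb1* gave 94.4, 113 and 109 TPM in libraries labelled sgZbtb1, 67.6, 71.4 and 70.4 TPM in those labelled sgCbfa2t3, and at 62.7, 66.6 and 55.7 TPM in sgControl. The 3 sgZbtb1 libraries were thus above all others, and the log2 fold change of sgZbtb1 against sgCbfa2t3 was 0.59 (SE 0.14; limma adjusted p = 0.0145). *Cbfa2t3* gave 340.5, 344 and 364 TPM in libraries labelled sgCbfa2t3, 171, 192 and 135 TPM in those labelled sgZbtb1, and at 209.6, 189 and 172 TPM in sgControl. Here too the targeted group was the highest, without overlap (log2 fold change −1.08, SE 0.11; limma adjusted p = 1.69e-11). Frameshifts made by Cas9 need not lower an mRNA, and reads at the 3′ end need not cover the cut, so these values do not check the loss of protein. Directions below are those of the libraries as labelled. The call of *Zbtb1* did not hold without sgZbtb1 replicate 2 or 3 or sgCbfa2t3 replicate 1 (limma adjusted p = 0.0535 to 0.14). *Cbfa2t2* was at 6.69 to 16.8 TPM in sgZbtb1 and 10.8 to 20.4 TPM in sgCbfa2t3, *Lmo2* at 11.95 to 21.6 and 10.3 to 16.1 TPM, and neither passed the test (limma adjusted p = 0.636 and 0.867). *Ebf1* reads, which can come from the parts of the gene that the deletion leaves, were at 209 to 221 TPM in sgZbtb1 and 251 to 289 TPM in sgCbfa2t3 (log2 fold change −0.28, limma adjusted p = 0.208).

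In the direct comparison, 134 genes (1.17% of those tested) had a limma adjusted p under 0.05, of which 47 were higher in the libraries labelled sgZbtb1 (0.411%) and 87 were higher in those labelled sgCbfa2t3 (0.761%). Among the 134, 127 were protein coding, and 131 did not overlap between the groups, against 14.8% of all genes tested. 82 genes (0.718%) were DEGs by the thresholds of the study, which ask for p under 0.05 before adjustment, a difference of more than 1 on the log2 scale and at least 1 group averaging over 10 TPM. Of these, 27 (0.236%) were higher in sgZbtb1 and 55 (0.481%) in sgCbfa2t3, and 44 genes met both rules. The median log2 fold change of all genes tested was −0.01, so the libraries were centred on each other. Without sgZbtb1 replicate 1, 2 or 3 the calls fell to 83, 84 and 83, and 56 of the 134 genes were called in each of the 6 fits that leave out 1 library. DESeq2 on the recovered reads called 80 genes and edgeR 136.

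**Figure D1:**
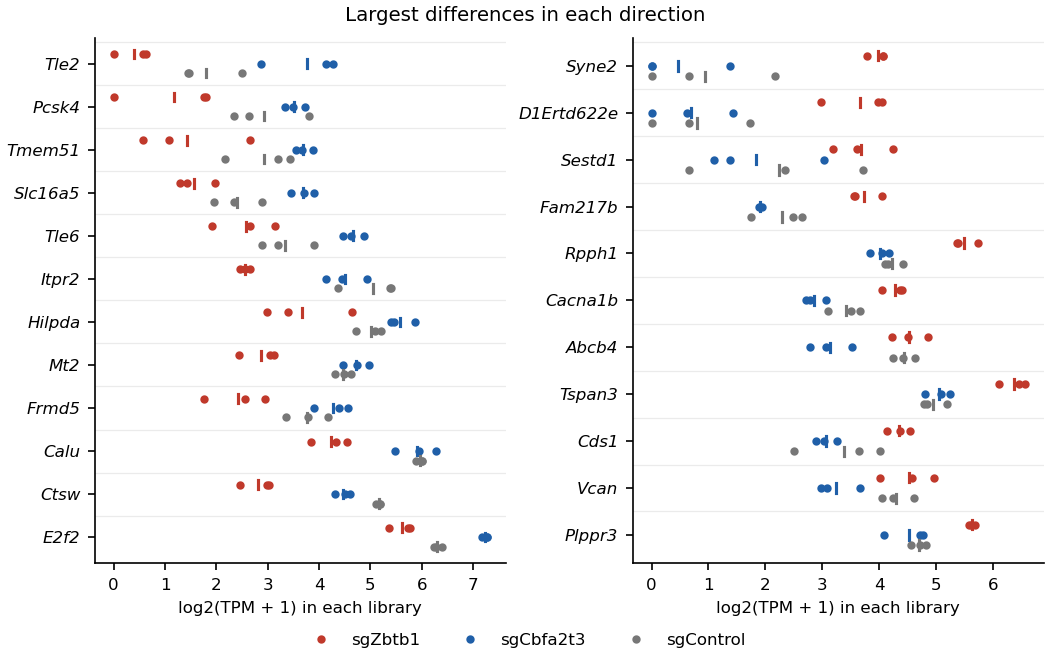
Values of 23 named genes with the largest fold changes among called genes whose groups do not overlap and that average above 10 TPM in at least 1 group, as log2(TPM + 1) in each library (points) with the group mean (bar), for sgZbtb1 (red), sgCbfa2t3 (blue) and sgControl (grey). The left panel holds the 12 genes higher in sgCbfa2t3 and the right panel 11 higher in sgZbtb1.

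The gene furthest toward sgCbfa2t3 was *Tle2*, which encodes a Groucho family corepressor. It had 0.558, 0.478 and 0 TPM in libraries labelled sgZbtb1, 16.6, 6.28 and 18.3 TPM in those labelled sgCbfa2t3, and at 1.74, 4.63 and 1.76 TPM in sgControl. All sgZbtb1 values lay under the floor of 3 reads, and all sgCbfa2t3 values lay above every other library (log2 fold change −3.36, SE 0.53; limma adjusted p = 1.61e-05). In reads the contrast was 2 in sgZbtb1 against 75 in sgCbfa2t3 over the 3 libraries, a ratio of 40.9 at equal depth (95% counting interval 10.9 to 344). *Tle6*, a second gene of the Groucho family, was at 2.79, 5.26 and 7.86 TPM in sgZbtb1, 23.6, 21.1 and 28.3 TPM in sgCbfa2t3, and 8.13, 13.9 and 6.45 TPM in sgControl (log2 fold change −2.08, SE 0.35; limma adjusted p = 7.64e-05). *Tle2* and *Tle6* are neighbours on chromosome 10, with 58 bases between the 3′ end of *Tle2* on the plus strand (81590845, GRCm38) and that of *Tle6* on the minus strand (81590904). Reads that run past one of these 3′ ends into the other gene could be counted for it if strand was not used, which is not stated in the sources used here. To that extent the pair is uncertain as a pair of separate changes.

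*E2f2*, an E2F transcription factor that acts in cell cycle entry and restrains lymphocyte proliferation, had the lowest adjusted p among these 12 genes. It was at 53.6, 52.1 and 40.3 TPM in sgZbtb1, 153, 143 and 153 TPM in sgCbfa2t3, and 76.1, 74.1 and 83.3 TPM in sgControl. The sgControl libraries fell between the groups, with sgZbtb1 below and sgCbfa2t3 above, and the groups differed 3.08-fold (log2 fold change −1.61, SE 0.14; limma adjusted p = 1.06e-12). In ChIP-seq of *Ebf1*-deficient LPs, both factors had a peak that the authors annotated as intronic and assigned to *E2f2*. The Zbtb1 peak had a score (its normalized tag count) of 423 and the Cbfa2t3 peak a score of 361, and they overlapped. The 200 bases at the centre of the Zbtb1 peak, chr4:136177658-136177857 (GRCm38, plus strand, outside every exon of GENCODE vM21), 3025 bases before the start site used by the authors, are printed to show the letters under the strongest Zbtb1 peak that overlaps a Cbfa2t3 peak near a gene in this group. Capitals mark TGTGGT, the core that Runx factors bind, and TGGTGGT, a sequence of a ZBTB family motif, on either strand, and where copies overlap they run together.
E2f2 window: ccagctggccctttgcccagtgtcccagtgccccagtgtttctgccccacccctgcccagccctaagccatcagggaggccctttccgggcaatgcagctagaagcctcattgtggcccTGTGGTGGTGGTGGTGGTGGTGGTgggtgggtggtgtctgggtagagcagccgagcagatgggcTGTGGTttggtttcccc
This window held 2 copies of TGTGGT and 6 overlapping copies of TGGTGGT in a run of TGG repeats.

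Next among genes higher in sgCbfa2t3, *Itpr2*, a calcium release channel of the endoplasmic reticulum, was at 4.47, 5.26 and 4.91 TPM in sgZbtb1, 20.9, 29.7 and 16.6 TPM in sgCbfa2t3, and 19.7, 40.5 and 41.0 TPM in sgControl (log2 fold change −1.96, SE 0.36; limma adjusted p = 0.000241). Only the sgZbtb1 libraries were low. *Itpr2* was the 1 called gene among 25 tested genes of calcium entry and IP3 receptors, beside 1.17% of all genes tested. *Hilpda*, which inhibits lipolysis at lipid droplets, was at 24.02, 9.56 and 6.87 TPM in sgZbtb1 and 57.4, 41.1 and 43.2 TPM in sgCbfa2t3 (limma adjusted p = 3.62e-06). *Calu*, a calcium-binding protein of the secretory pathway, was at 22.3, 19.1 and 13.3 TPM in sgZbtb1, 76.7, 60.5 and 43.8 TPM in sgCbfa2t3, and 58.0 to 63.3 TPM in sgControl (limma adjusted p = 5.83e-07). *Mt2*, a metallothionein that binds zinc, was at 4.42 to 7.65 TPM in sgZbtb1 and 21.0 to 30.3 TPM in sgCbfa2t3 (limma adjusted p = 0.000165). Its neighbour *Mt1*, named after its values were seen, was at 122 to 146 TPM and 219.8 to 230.0 TPM (limma adjusted p = 1.97e-06), and the near-identical copies may share reads. *Ctsw*, a cathepsin of NK and cytotoxic T cells, was at 4.47 to 7.17 TPM in sgZbtb1, 18.8 to 23.4 TPM in sgCbfa2t3 and 33.4 to 35.4 TPM in sgControl (limma adjusted p = 0.00214), and overlaps *Fibp* on the other strand, which stood at 42.5 TPM in sgZbtb1 and 42.1 TPM in sgCbfa2t3. *Pcsk4*, *Tmem51*, *Slc16a5* and *Frmd5* completed the 12, with log2 fold changes of −2.33, −2.26, −2.12 and −1.86 and at most 27 reads each over the sgZbtb1 libraries. Of these, *Pcsk4* lost its call without sgZbtb1 replicate 1 (limma adjusted p = 0.0803).

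Several called genes lay side by side. *Impdh1*, *Hilpda*, *Calu* and *Atp6v1f* are 4 consecutive tested genes on chromosome 6, from 29200434 to 29470512 (GRCm38), with gaps of 56.1, 72.6 and 90.6 kb and no other tested gene between them, and all 4 were lower in sgZbtb1. *Impdh1*, an enzyme of guanine nucleotide synthesis, was at 15.6, 16.3 and 17.7 TPM in sgZbtb1, 45.6, 52.0 and 48.2 TPM in sgCbfa2t3, and 43.4 to 68.5 TPM in sgControl (limma adjusted p = 5.6e-06), while *Atp6v1f*, a subunit of the vacuolar proton pump, differed less (log2 fold change −0.32, limma adjusted p = 0.0448), and its call held without only 1 of the 6 libraries (limma adjusted p up to 0.215). *Tcrg-C1*, *Tcrg-C2* and *Tcrg-C4* on chromosome 13, *Mllt3* and *Focad* on chromosome 4, and *H2afz*, *Dnajb14* and *Lamtor3* on chromosome 3 also lay close together and were lower in sgZbtb1. With some other tested genes between them, these were not all consecutive. On chromosome 10, *2310011J03Rik* and *Pcsk4*, 745 bases apart, were both lower in sgZbtb1, while *Pwwp3a*, 74.35 kb from *2310011J03Rik*, was higher. The call of *2310011J03Rik* held in 0 of the 6 fits that leave out 1 library. How often neighbouring tested genes share a direction was not counted. These genes were singled out for their positions after their values were seen.

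Toward sgZbtb1, the largest difference was that of *Syne2*, a giant nuclear envelope protein that ties the nucleus to actin. It had 12.8, 15.8 and 15.7 TPM in libraries labelled sgZbtb1, 1.61, 0 and 0 TPM in those labelled sgCbfa2t3, and at 3.48, 0 and 0.586 TPM in sgControl. Every sgCbfa2t3 value lay at or under the floor, with 88 reads in sgZbtb1 against 3 in sgCbfa2t3, a ratio of 26.9 at equal depth (95% counting interval 8.90 to 133; log2 fold change 3.51, SE 0.51; limma adjusted p = 2.96e-06). *Syne2* ends 259.3 kb before *Zbtb1* on chromosome 12, and was the 1 called gene among 15 other genes tested within 1 Mb of *Zbtb1*, of which 6 had an unadjusted limma p under 0.05, beside 10.2% of all genes tested. Of 33 genes tested within 1 Mb of *Cbfa2t3*, limma, edgeR and DESeq2 called 0, and 4 had an unadjusted limma p under 0.05, near that share. Next, *D1Ertd622e* was at 15.6, 14.8 and 6.87 TPM in sgZbtb1 and at most 1.71 TPM in sgCbfa2t3 (73 against 4 reads over the 3 libraries, limma adjusted p = 0.000118).

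*Tspan3*, a tetraspanin of the plasma membrane, was at 93.9, 87.5 and 67.8 TPM in sgZbtb1, 37.0, 33.1 and 27.1 TPM in sgCbfa2t3, and 26.7 to 35.8 TPM in sgControl (log2 fold change 1.33, SE 0.18; limma adjusted p = 4.43e-07). *Rpph1*, the RNA component of RNase P, was at 40.2 to 52.5 TPM in sgZbtb1 and 13.4 to 17.1 TPM in sgCbfa2t3 (limma adjusted p = 2.34e-05), although QuantSeq primes on poly(A) tails and this RNA normally has none. *Plppr3*, a lipid phosphatase related protein of the nervous system, was at 46.9 to 50.6 TPM in sgZbtb1 and 16.1 to 26.3 TPM in sgCbfa2t3 (limma adjusted p = 0.00112), and overlaps *Ptbp1* on the other strand, which stood at 415 and 397 TPM. *Smarca2*, an ATPase of the SWI/SNF chromatin remodelers, named after its values were seen, was at 106, 97.1 and 88.4 TPM in sgZbtb1, 46.6, 53.1 and 48.7 TPM in sgCbfa2t3, and 56.9 to 78.7 TPM in sgControl (limma adjusted p = 1.81e-05).

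*Abcb4*, a phospholipid transporter, and *Vcan*, the proteoglycan versican, differed in another way. *Abcb4* was at 21.8, 28.2 and 17.7 TPM in sgZbtb1, 5.90, 7.42 and 10.5 TPM in sgCbfa2t3, and 23.8, 17.9 and 20.5 TPM in sgControl (log2 fold change 1.40, limma adjusted p = 0.0113). *Vcan* was at 15.2 to 30.2 TPM, 6.85 to 11.6 TPM and 15.6 to 23.5 TPM (log2 fold change 1.28, limma adjusted p = 0.0266). For both, sgControl overlapped with sgZbtb1, and sgCbfa2t3 was the low group. *Cacna1b*, a neuronal calcium channel, *Cds1*, an enzyme of phosphatidylinositol synthesis, *Sestd1* and *Fam217b* had log2 fold changes of 1.42, 1.29, 1.84 and 1.82 with 72 or more reads each over the sgZbtb1 libraries. These calls were fragile. Without 1 library, limma adjusted p values of 0.0511 to 0.292 were reached for *Abcb4*, *Vcan*, *Cacna1b*, *Cds1*, *Sestd1* and *Fam217b*. The calls were lost for *Cacna1b* and *Fam217b* without any of the sgZbtb1 replicates, for *Abcb4* and *Vcan* without sgZbtb1 replicate 1 or 2 or sgCbfa2t3 replicate 1, for *Vcan* also without sgCbfa2t3 replicate 2, for *Cds1* without any library but sgCbfa2t3 replicate 2, and for *Sestd1* without sgZbtb1 replicate 1 or 3 or sgCbfa2t3 replicate 1 or 2. *Sestd1* was called by neither edgeR nor DESeq2, and DESeq2 also did not call *Cds1* and *Vcan*.

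Further called genes outside the lists were named after their values were seen, and, with the exception of *Ina*, are genes whose call held without any 1 of the 6 libraries. *Dgkd*, a kinase that consumes diacylglycerol, was at 73.2, 94.7 and 114 TPM in sgZbtb1, 179.6, 164 and 227 TPM in sgCbfa2t3, and 132 to 214 TPM in sgControl (limma adjusted p = 1.85e-07). *Prkca*, a protein kinase C that diacylglycerol activates, was at 49.7, 43.5 and 43.2 TPM in sgZbtb1, 89.5, 78.8 and 72.0 TPM in sgCbfa2t3, and 62.5 to 91.5 TPM in sgControl (limma adjusted p = 0.00153). Both were low in sgZbtb1 alone. *B4galt1*, a galactosyltransferase of the Golgi, was at 68.7 to 88.9 TPM in sgZbtb1, 138 to 186 TPM in sgCbfa2t3 and 106 to 128.5 TPM in sgControl, with sgControl between the groups (log2 fold change −0.98, limma adjusted p = 5.83e-07). *Igf2r*, which sorts lysosomal enzymes, was at 111.5 to 177 TPM, 205 to 239 TPM and 216 to 253 TPM in the same order (log2 fold change −0.66, limma adjusted p = 0.000214). *Adgre1*, the F4/80 antigen, was at 37.8 to 63.6 TPM in sgZbtb1, 85.8 to 106 TPM in sgCbfa2t3 and 82.5 to 134 TPM in sgControl (limma adjusted p = 1.93e-05), while none of the 21 tested myeloid genes was called. *Mef2a*, a MADS-box transcription factor, was at 65.4 to 92.8 TPM in sgZbtb1 and 124 to 169 TPM in sgCbfa2t3 (limma adjusted p = 1.55e-05). *Zdhhc14*, *5031439G07Rik*, *Actr3b* and *Mgst2* met the same rule, with log2 fold changes of −1.40, −1.43, −0.71 and −0.55.

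In the other direction, *Cltb*, a clathrin light chain, was at 80.4, 101 and 125 TPM in sgZbtb1, 53.6, 52.5 and 51.5 TPM in sgCbfa2t3, and 31.4 to 46.9 TPM in sgControl (log2 fold change 0.92, limma adjusted p = 5.7e-05). All 3 groups were separate, with sgControl lowest. *Fmnl1*, a formin that assembles actin filaments in blood cells, was at 139, 134 and 153 TPM in sgZbtb1, 81.0, 80.5 and 101 TPM in sgCbfa2t3, and 66.3 to 102 TPM in sgControl (log2 fold change 0.70, limma adjusted p = 0.00031). *Adam15*, a membrane metalloprotease, was at 87.9 to 90.5 TPM in sgZbtb1, 47.4 to 62.0 TPM in sgCbfa2t3 and 44.0 to 65.7 TPM in sgControl (limma adjusted p = 0.00279). For *Fmnl1* and *Adam15*, only sgZbtb1 was high. *Fam98c* and the long noncoding RNA *Gm26917* met the same rule, with log2 fold changes of 0.77 and 0.46. *Ina*, which encodes a neuronal intermediate filament, had no read in the 3 sgCbfa2t3 libraries and 4.30 to 5.59 TPM in the 3 sgZbtb1 libraries (limma adjusted p = 0.018), and its call was lost without any 1 of the sgZbtb1 replicates (limma adjusted p up to 0.161).

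**Figure D2:**
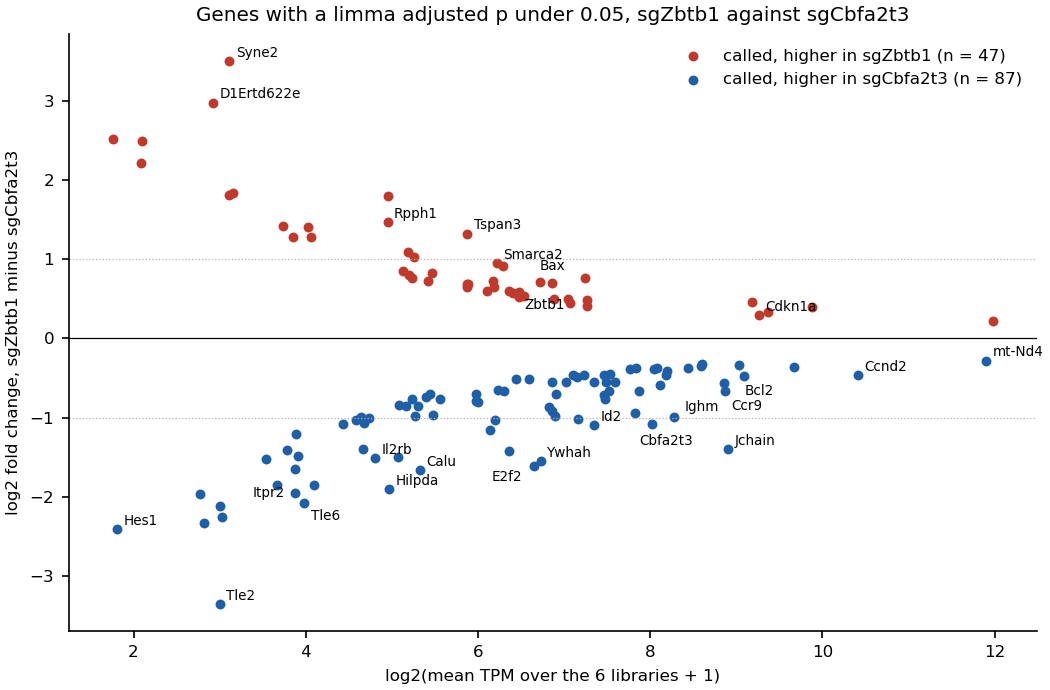
The 134 called genes by level (x axis, log2 of the mean TPM over the 6 libraries plus 1) and by log2 fold change of sgZbtb1 against sgCbfa2t3 (y axis), red where higher in sgZbtb1 and blue where higher in sgCbfa2t3, with dotted lines at 1 and −1. The largest fold changes are at low levels, and the genes above 10 on the x axis differ by less than 0.5.

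Of 20 tested T-lineage transcription factors, *Id2* and *Runx1* were called, both lower in sgZbtb1 (2 of 20, beside 1.17% of all genes), while the list split into 10 members above and 10 below 0, with a median log2 fold change of 0.02. *Id2*, an inhibitor of E proteins that marks innate lymphoid commitment, was at 81.0, 129 and 103 TPM in sgZbtb1, 206, 257 and 199 TPM in sgCbfa2t3, and 134, 183 and 153 TPM in sgControl. The groups were 2.12-fold apart (log2 fold change −1.09, SE 0.13; limma adjusted p = 7.53e-09), and all 3 sgControl libraries lay between them. *Runx1*, a Runt domain factor needed throughout early lymphopoiesis, was at 178, 186 and 175 TPM in sgZbtb1, 319, 285 and 256 TPM in sgCbfa2t3, and 303 to 334 TPM in sgControl (log2 fold change −0.66, SE 0.10; limma adjusted p = 9.51e-06). Only the sgZbtb1 libraries stood low. *Runx1* was also 1 of 3 called genes among 29 tested genes of the Lmo2 complex and ETO corepressors, the others being the targeted *Zbtb1* and *Cbfa2t3*.

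Of the T-cell factors with a part in commitment, *Bcl11b* was at 5.59, 4.30 and 5.89 TPM in sgZbtb1, 15.5, 5.71 and 13.3 TPM in sgCbfa2t3, and 18.8 to 24.4 TPM in sgControl. The groups overlapped in sgCbfa2t3 replicate 2, and the difference did not pass the test (log2 fold change −0.91, SE 0.41; limma adjusted p = 0.416). *Gata3* was at 24.1 to 43.0 TPM in sgZbtb1 and 27.9 to 32.7 TPM in sgCbfa2t3, and *Bcl11a* at 19.1 to 32.5 and 23.3 to 30.0 TPM (limma adjusted p = 0.80 and 0.904). *Tcf7* was not tested, since its mean was not above 1 TPM. It had 3, 1 and 1 reads in the libraries labelled sgZbtb1, 1, 1 and 4 reads in those labelled sgCbfa2t3, and 1, 9 and 4 reads in sgControl, so no difference between the groups as labelled was detectable at this depth.

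Among 19 tested genes of the T-cell surface and its signalling, *Thy1* alone was called, beside 1.17% of all genes tested. It was at 195, 137 and 137 TPM in sgZbtb1, 207, 251 and 222 TPM in sgCbfa2t3, and 299.6 to 332 TPM in sgControl (log2 fold change −0.55, SE 0.12; limma adjusted p = 0.00277), and the call was lost without sgZbtb1 replicate 2 or 3 or sgCbfa2t3 replicate 2 (limma adjusted p = 0.0543 to 0.0653). The list had the lowest median of all 26 lists, −0.56 against −0.01 for all genes tested, with 14 of 19 members below 0 and a range of −0.61 to −0.29 over the alternative settings. Many of its members were low, with 8 of 35 at 0 in all 6 libraries. Summed over the whole list, the level was 439 to 513 TPM in sgZbtb1, 582 to 629 TPM in sgCbfa2t3 and 770.0 to 838 TPM in sgControl. In these sums *Thy1* alone took a mean of 156, 227 and 315 TPM, in the same order. In such bulk libraries, fewer cells of a type and less RNA per cell cannot be told apart. The constant regions of the T-cell receptor gamma genes were outside the lists and were named after their values were seen. *Tcrg-C1* was at 370.4, 387 and 357 TPM in sgZbtb1 and 521, 607 and 527 TPM in sgCbfa2t3 (limma adjusted p = 5.58e-06). *Tcrg-C4* and *Tcrg-C2* were also lower in sgZbtb1, *Tcrg-C4* by a log2 fold change of −0.58 and *Tcrg-C2* by −0.36 (limma adjusted p = 5.84e-05 and 0.00209). Reads may be shared where these related genes are alike.

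Genes of innate lymphoid and natural killer cells gave 2 calls among 11 tested, *Id2* and *Il2rb*, beside 1.17% of all genes tested. *Il2rb*, the receptor chain shared by IL-2 and IL-15, was at 19.0, 13.9 and 8.84 TPM in sgZbtb1, 44.5, 38.8 and 36.6 TPM in sgCbfa2t3, and 61.6, 50.9 and 38.1 TPM in sgControl (log2 fold change −1.51, SE 0.26; limma adjusted p = 8.62e-05). Only sgZbtb1 was low. *Il2rb* and *Ccnd2* were the 2 called genes among 35 tested cytokine receptors and JAK-STAT genes, beside the same 1.17%. *Ccnd2*, a D-type cyclin that cytokines induce, was at 989, 1187 and 1275 TPM in sgZbtb1, 1445, 1517 and 1770.4 TPM in sgCbfa2t3, and 1076 to 1191 TPM in sgControl (log2 fold change −0.46, SE 0.08; limma adjusted p = 4.76e-05), so that here sgCbfa2t3 stood apart from the other groups.

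B-lineage genes gave 3 calls among 19 tested, *Ighm*, *Cd24a* and *Ly6d*, each lower in sgZbtb1, beside 0.761% of all genes tested that were called in that direction, while the median of the list was −0.08. *Ighm*, the IgM heavy chain constant region, was at 189, 206 and 227 TPM in sgZbtb1, 393, 402 and 444 TPM in sgCbfa2t3, and 246, 398 and 409.9 TPM in sgControl (log2 fold change −0.99, SE 0.10; limma adjusted p = 1.43e-11). The 1 sgControl library at 246 TPM lay between the groups. *Cd24a*, a surface glycoprotein of B-cell precursors, was at 32.9 to 52.0 TPM in sgZbtb1, 91.4 to 100.3 TPM in sgCbfa2t3 and 93.8 to 133 TPM in sgControl (limma adjusted p = 1.25e-06). *Ly6d*, which marks B-cell-biased lymphoid progenitors, was at 27.9, 36.8 and 23.6 TPM in sgZbtb1, 55.2, 67.4 and 51.0 TPM in sgCbfa2t3, and 134, 155 and 186 TPM in sgControl (limma adjusted p = 0.00186). *Ly6d* thus took 3 separate levels, lowest in sgZbtb1. The whole list summed to 1166 to 1229 TPM in sgZbtb1, 1492 to 1593 TPM in sgCbfa2t3 and 1544 to 1764 TPM in sgControl.

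The lowest adjusted p of the whole comparison belonged to *Jchain*, the joining chain of polymeric immunoglobulins, which lymphoid progenitors also express. It was at 217, 318 and 256 TPM in sgZbtb1, 606, 760.0 and 714 TPM in sgCbfa2t3, and 853, 1159 and 1195 TPM in sgControl. The 3 groups did not overlap, with sgZbtb1 lowest and sgControl highest (log2 fold change −1.40, SE 0.10; limma adjusted p = 4.02e-17), and the call held without any 1 library. *Ccr9*, the chemokine receptor for thymic homing, had the same order, at 308, 378 and 391.8 TPM in sgZbtb1, 497, 574 and 641 TPM in sgCbfa2t3, and 855, 909.9 and 1003 TPM in sgControl (log2 fold change −0.67, SE 0.09; limma adjusted p = 7.48e-07), and overlaps *Lztfl1* on the other strand (125 and 163 TPM). *Jchain* and the next gene, *Ywhah*, were named after their values were seen. *Ywhah*, a 14-3-3 adaptor protein, was at 46.4, 69.3 and 45.2 TPM in sgZbtb1, 159, 156 and 155 TPM in sgCbfa2t3, and 119.6 to 149.9 TPM in sgControl (limma adjusted p = 4.87e-12). *Lmo4*, a LIM-only relative of *Lmo2* that was also named after its values were seen, was at 122 to 173 TPM in sgZbtb1, 261 to 324 TPM in sgCbfa2t3 and 179 to 286 TPM in sgControl (limma adjusted p = 1.31e-08).

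**Figure D3:**
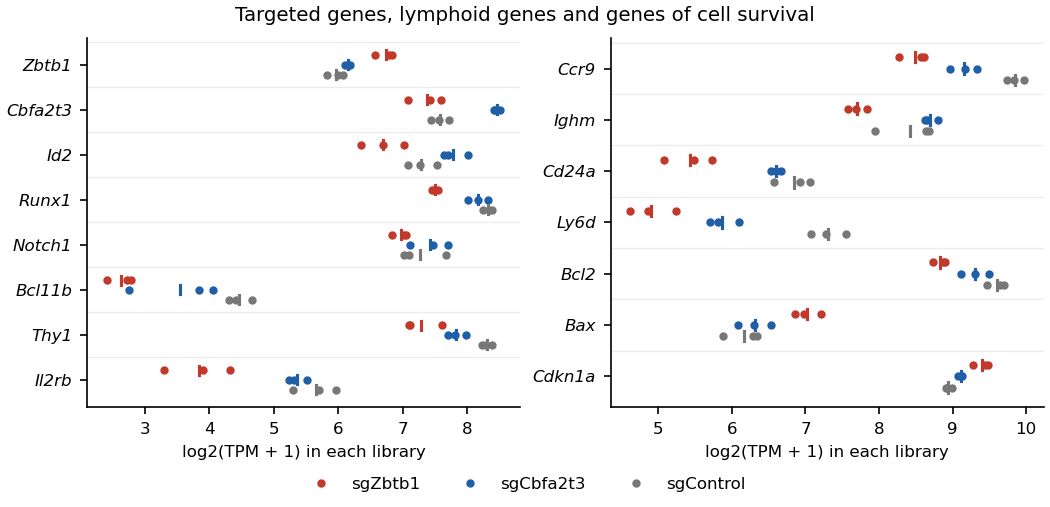
Values of 15 named genes as log2(TPM + 1) in each library (points) with the group mean (bar), for sgZbtb1 (red), sgCbfa2t3 (blue) and sgControl (grey). Red lies left of blue for the lymphoid genes from *Id2* to *Ccr9* and from *Ighm* to *Ly6d*, with overlap for *Bcl11b*, and right of blue for *Bax* and *Cdkn1a*.

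Of 26 tested genes of the Notch pathway, *Notch1* and *Hes1* were called, beside 1.17% of all genes tested, and the median was 0.02. *Hes1*, a target gene of Notch signaling, had no read in the 3 libraries labelled sgZbtb1, and was at 5.36, 7.99 and 1.66 TPM in those labelled sgCbfa2t3 (27 reads) and at 0, 0 and 1.17 TPM in sgControl. Against a floor of 3 reads in each sgZbtb1 library, *Hes1* was at least 3.28-fold higher in sgCbfa2t3 (limma adjusted p = 0.036). *Notch1* was at 131, 129 and 112 TPM in sgZbtb1, 206, 176 and 138 TPM in sgCbfa2t3, and 129 to 203 TPM in sgControl (log2 fold change −0.46, SE 0.12; limma adjusted p = 0.039). Both calls were lost without any single sgZbtb1 replicate and without sgCbfa2t3 replicate 1 or 2 (limma adjusted p = 0.0899 to 0.374), and DESeq2 gave *Notch1* an adjusted p of 0.124.

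Genes of cell survival differed in both directions. *Bcl2*, which blocks apoptosis, was at 467, 423 and 475 TPM in sgZbtb1, 552, 629 and 723 TPM in sgCbfa2t3, and 706 to 832 TPM in sgControl (log2 fold change −0.47, SE 0.09; limma adjusted p = 0.000241). *Bax*, which promotes apoptosis and is a p53 target, was at 126, 147 and 115 TPM in sgZbtb1, 67.0, 77.7 and 92.0 TPM in sgCbfa2t3, and 58.1 to 79.9 TPM in sgControl (log2 fold change 0.71, SE 0.14; limma adjusted p = 0.00069). *Bcl2* was thus lower and *Bax* higher in the libraries labelled sgZbtb1, and they were the 2 called genes among 15 tested of the *Bcl2* family, beside 1.17% of all genes tested. *Cdkn1a*, the p53-induced inhibitor of cyclin-dependent kinases, was at 697, 715 and 623 TPM in sgZbtb1, 540.5, 553 and 561 TPM in sgCbfa2t3, and 478 to 508 TPM in sgControl (log2 fold change 0.30, SE 0.08; limma adjusted p = 0.039). Its call was lost without sgZbtb1 replicate 1 or 2 or sgCbfa2t3 replicate 1 or 2 (limma adjusted p = 0.127 to 0.26). *Bax* and *Cdkn1a* were the called genes among 37 tested p53 targets (2 of 37, beside the same 1.17%), and the median of that list was −0.05, with a range of −0.05 to 0.19 over the alternative settings. At an unadjusted limma p under 0.05, 5 of its members were higher and 1 lower in sgZbtb1, beside 10.2% of all genes tested in either direction. The list summed to 2292 to 2499 TPM in sgZbtb1, 2118 to 2190 TPM in sgCbfa2t3 and 2031 to 2155 TPM in sgControl, sums in which *Cdkn1a* alone took a mean of 678, 551 and 491 TPM.

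Interferon-stimulated genes gave 3 calls among 32 tested, in both directions, beside 1.17% of all genes tested. *H2-K1*, a class I MHC heavy chain, was at 126 to 139 TPM in sgZbtb1, 184 to 203 TPM in sgCbfa2t3 and 212 to 246 TPM in sgControl (limma adjusted p = 0.00153). *H2-D1*, its near copy with which it may share reads, was at 191 to 208 TPM, 243 to 275 TPM and 269 to 337 TPM (limma adjusted p = 0.0439), a call lost without any 1 of the 6 libraries (limma adjusted p = 0.057 to 0.177). *Irf1*, a transcription factor of the interferon response, was at 75.4, 68.4 and 66.8 TPM in sgZbtb1, 39.1, 58.8 and 37.7 TPM in sgCbfa2t3, and 68.9 to 76.8 TPM in sgControl (log2 fold change 0.65, limma adjusted p = 0.0384), so that sgCbfa2t3 was the low group. Its call was lost without any library but sgCbfa2t3 replicate 2 (limma adjusted p = 0.094 to 0.24). DESeq2 called *H2-K1* but neither *H2-D1* nor *Irf1* (DESeq2 adjusted p = 0.0739 and 0.159), and edgeR called all 3.

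The remaining lists gave few calls or none, to be read beside 1.17% of all genes tested. *Hbb-bt*, a hemoglobin chain with a near copy, was the 1 called gene among 10 tested erythroid and megakaryocytic genes, at 112 to 168 TPM in sgZbtb1, 184 to 277 TPM in sgCbfa2t3 and 114 to 148 TPM in sgControl (limma adjusted p = 0.000233), and DESeq2 did not call it (adjusted p = 0.319). *Fads2*, a fatty acid desaturase, was the 1 called gene of 37 for cholesterol and fatty acid synthesis (−0.37), and *Selplg*, the P-selectin ligand, the 1 of 22 adhesion molecules (−0.38). Each of these 2 calls was lost without any sgZbtb1 replicate and without sgCbfa2t3 replicate 2, for *Fads2* also without sgCbfa2t3 replicate 3 and for *Selplg* without sgCbfa2t3 replicate 1 (limma adjusted p = 0.0846 to 0.343). DESeq2 called neither (DESeq2 adjusted p = 0.0944 for *Fads2* and 0.106 for *Selplg*), and edgeR did not call *Selplg*, so that both gave 0 calls among the adhesion molecules, of which 6 had an unadjusted limma p under 0.05. *mt-Nd4*, a mitochondrially encoded subunit of complex I, was the 1 called gene of 8 mitochondrially encoded genes (−0.28, limma adjusted p = 0.0162), lost without sgZbtb1 replicate 2 or sgCbfa2t3 replicate 2 or 3 (limma adjusted p = 0.0517 to 0.326). DESeq2 called 0 of the 8, and 4 of them had an unadjusted limma p under 0.05. All 8 had a log2 fold change below 0, and the mitochondrially encoded genes summed to 14439 to 16489 TPM in sgZbtb1 and 16137 to 18333 TPM in sgCbfa2t3, which overlap. The part of this share in the other results was not tested.

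Limma, edgeR and DESeq2 each called 0 genes among 46 tested of DNA replication, 49 of mitosis, 78 of cytosolic ribosomal proteins, 40 of the *Atf4* and amino acid response, 33 of glycolysis and hypoxia, 29 of the immediate early and MAPK feedback response, 26 progenitor transcription factors and receptors, 21 myeloid genes, 10 of MHC class II and 6 OP9 stromal genes. At an unadjusted limma p under 0.05, these lists held 3, 3, 6, 4, 9, 2, 11, 3, 0 and 0 genes, beside 10.2% of all genes tested. Furthest above that share were 11 of 26 progenitor genes (7 higher and 4 lower in sgZbtb1) and 9 of 33 genes of glycolysis and hypoxia (2 higher and 7 lower). *Hoxa9*, a homeobox factor of early progenitors, was at 513 to 566 TPM in sgZbtb1 and 608 to 705 TPM in sgCbfa2t3 (limma adjusted p = 0.142). *Erg*, an ETS factor of stem and progenitor cells, was at 21.1 to 46.9 TPM and 12.2 to 16.6 TPM (limma adjusted p = 0.134). *Spry2*, a feedback inhibitor of receptor tyrosine kinase signalling, was at 10.6, 5.74 and 5.40 TPM in sgZbtb1 and 1.61, 1.14 and 1.66 TPM in sgCbfa2t3 (42 against 8 reads, limma adjusted p = 0.099), values without overlap that did not pass the test. *Ccr2*, a monocyte chemokine receptor, was at 23.4 to 31.8 TPM in sgZbtb1, 11.1 to 15.5 TPM in sgCbfa2t3 and 22.3 to 38.9 TPM in sgControl (limma adjusted p = 0.09). *Fen1*, the flap endonuclease of DNA replication, was at 122 to 149.7 TPM and 92.5 to 111 TPM, and *Mki67*, the proliferation antigen Ki-67, at 526 to 579 TPM and 595 to 688 TPM (limma adjusted p = 0.162 and 0.292). *Tyms*, also in the DNA replication list, went the other way from *Fen1*, at 35.8 to 52.5 TPM and 52.5 to 68.5 TPM (limma adjusted p = 0.214). Of the 3 genes of that list with an unadjusted limma p under 0.05, 1 was higher and 2 were lower in sgZbtb1. *Asns*, asparagine synthetase, was at 23.4 to 34.4 TPM in sgZbtb1, 40.7 to 68.7 TPM in sgCbfa2t3 and 22.6 to 34.8 TPM in sgControl (log2 fold change −0.73, limma adjusted p = 0.0668).

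**Figure D4:**
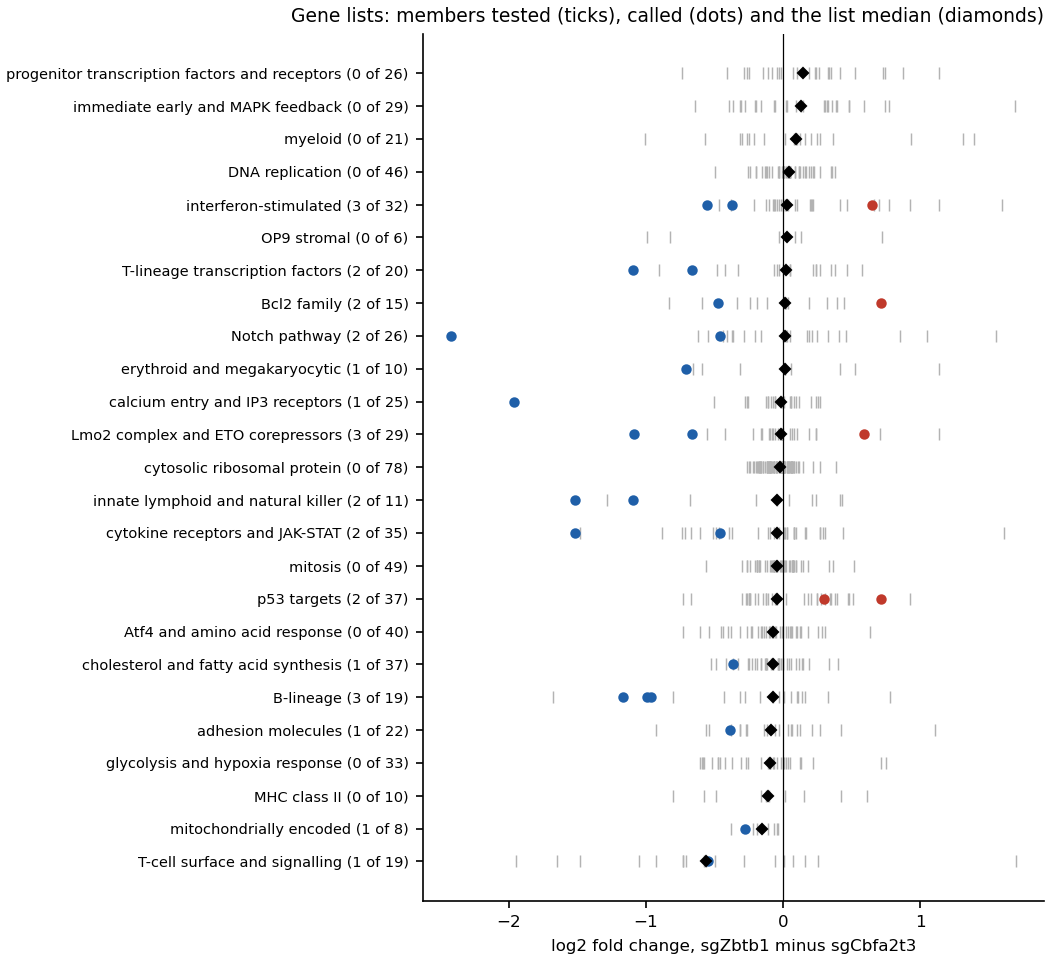
Log2 fold change of sgZbtb1 against sgCbfa2t3 (x axis) for the tested members of 25 gene lists (grey ticks), the called members (red where higher in sgZbtb1, blue where higher in sgCbfa2t3) and the list median (black diamond), with the number called of the number tested. Most medians lie within 0.15 of 0, and that of T-cell surface and signalling lies at −0.56.

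The level in sgControl showed which group stood apart from it. The mean in sgControl was nearer to sgCbfa2t3 than to sgZbtb1 for 117 of the 134 called genes (87.3%), against 56.7% of all genes tested. Of the 87 genes higher in sgCbfa2t3, sgControl lay above both groups for 44, between them for 40 and below both for 3. *Jchain*, *Ccr9*, *Ly6d*, *Bcl2* and *Ctsw* were among the 44, and the 3 were *Ccnd2*, *Hbb-bt* and the histone gene *H2afz*. Of the 47 genes higher in sgZbtb1, sgControl lay below both for 18, between them for 27 and above both for 2, *Irf1* and *Itsn1*. The 10 genes higher in sgCbfa2t3 with sgControl nearer to sgZbtb1 were *Tle2*, *Tle6*, *Hes1*, *Slc16a5*, *E2f2*, *Ptp4a3*, *Cbfa2t3*, *Hbb-bt*, *Ccnd2* and *H2afz*. The 7 genes higher in sgZbtb1 with sgControl nearer to sgZbtb1 were *Ifitm1*, *Itsn1*, *Cd69*, *Irf1*, *Ifi203*, *Vcan* and *Abcb4*. For these 17 genes sgCbfa2t3 was the group further from sgControl.

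ChIP-seq peaks of both factors, from *Ebf1*-deficient LPs without Notch stimulation and kept by the authors where found in both of 2 replicates, gave a readout that did not enter the comparison. Of the 134 called genes, the authors' annotation gave 71 (52.99%) as nearest to a Zbtb1 peak and 57 (42.5%) as nearest to a Cbfa2t3 peak, against 26.9% and 20.5% of all genes tested. Called genes were also more abundant, with a median of 73.7 TPM against 25.3 TPM, and among the 8064 tested genes with a mean above 10 TPM these shares were 30.7% and 22.6%. Zbtb1 peaks were near 27 of the 47 genes higher in sgZbtb1 (57.4%) and 44 of the 87 higher in sgCbfa2t3 (50.6%), and Cbfa2t3 peaks near 14 (29.8%) and 43 (49.4%). A nearest gene need not be the gene a peak acts on, so these shares describe positions. With peaks within 10 kb of the promoter the numbers of called genes were 52 and 37 (38.8% and 27.6%, against 21.98% and 12.6% of all genes tested), and with a score of at least 30 they were 43 and 47 (32.1% and 35.1%, against 14.4% and 12.7%).

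**Figure D5:**
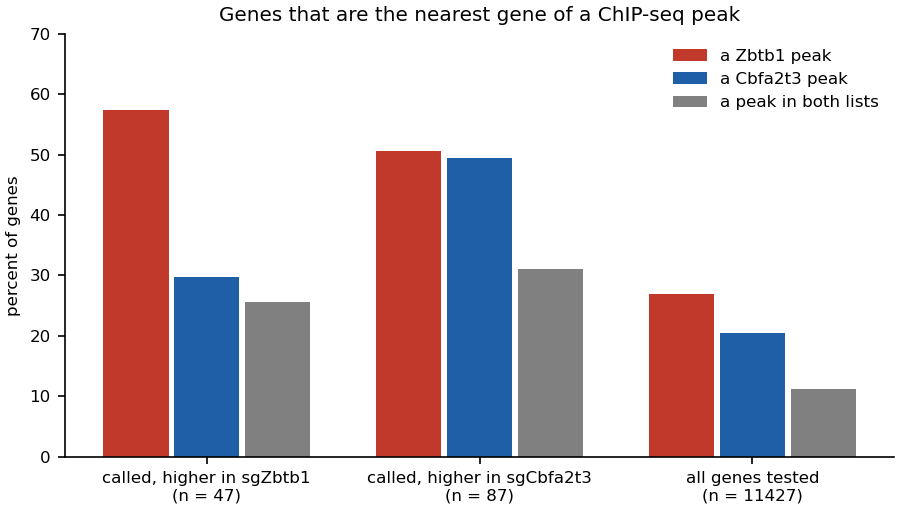
Percent of genes that are the nearest gene of a Zbtb1 peak (red), of a Cbfa2t3 peak (blue) or of peaks in both lists (grey), for the called genes higher in sgZbtb1, those higher in sgCbfa2t3, and all genes tested. Shares are higher among called genes than among all genes tested, and the Cbfa2t3 share is 29.8% in the first group and 49.4% in the second.

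Genes lower in sgZbtb1 held Zbtb1 peaks at their own promoters, among them *Bcl2* (score 136, 66 bases from the start site), *Calu* (69.1), *Ywhah* (40.5), *Notch1* (37.7), *Tle2* (28.7) and *Hilpda* (16.9). *Runx1* had 8 Zbtb1 peaks and 9 Cbfa2t3 peaks, the strongest a Zbtb1 peak at a promoter with a score of 219.7. Genes higher in sgZbtb1 held them too, among them *Tspan3* (107), *Irf1* (78.6), *Cds1* (77.0), *Abcb4* (47.2), *Bax* (32.0) and *Cacna1b* (23.6), so a Zbtb1 peak at the promoter went with either direction. *Zbtb1* itself had a Zbtb1 peak with a score of 259, and *Cbfa2t3* had 10 Cbfa2t3 peaks, the strongest with a score of 515, the highest of any peak near a called gene in that list. *Hes1* had 2 Zbtb1 peaks near its start site (scores 44.0 and 32.0), a nearer Cbfa2t3 peak 1011 bases before it (21.7) and 2 distal Cbfa2t3 peaks (23.3 and 24.2). *Tcf7* had a Zbtb1 and a Cbfa2t3 peak that overlapped about 35.6 kb before its start site, with scores of 70.3 and 88.6, and a further Zbtb1 peak 31.26 kb before it (28.4).

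The centre 200 bases are printed for distal Cbfa2t3 peaks near 2 lymphoid genes that were lower in sgZbtb1, *Ccr9* (chr9:123754468-123754667, score 199, 12644 bases before the start site used by the authors and inside the longest gene model of GENCODE vM21) and *Il2rb* (chr15:78512055-78512254, score 112, 17088 bases before), and for a Zbtb1 peak in an intron of *Cacna1b*, which was higher in sgZbtb1 (chr2:24747952-24748151, score 129.5, 15101 bases after). They were chosen after the peaks were seen, among the strongest near named genes, as examples that hold the Runx core. All are on GRCm38 (plus strand), outside exons, with TGTGGT or its reverse complement ACCACA in capitals.
Ccr9 window: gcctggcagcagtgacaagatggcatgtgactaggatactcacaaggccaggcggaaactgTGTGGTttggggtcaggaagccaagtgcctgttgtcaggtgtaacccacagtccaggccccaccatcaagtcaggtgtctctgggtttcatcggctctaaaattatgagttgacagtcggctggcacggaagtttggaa
Il2rb window: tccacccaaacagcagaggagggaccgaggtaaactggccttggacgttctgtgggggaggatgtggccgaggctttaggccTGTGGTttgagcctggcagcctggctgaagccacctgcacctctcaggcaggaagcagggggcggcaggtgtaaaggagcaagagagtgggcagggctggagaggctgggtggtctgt
Cacna1b window: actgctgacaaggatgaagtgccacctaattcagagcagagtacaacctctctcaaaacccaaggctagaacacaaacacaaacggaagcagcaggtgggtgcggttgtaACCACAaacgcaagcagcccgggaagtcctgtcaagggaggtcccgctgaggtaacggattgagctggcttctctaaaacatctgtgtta
Each of these windows held 1 copy of TGTGGT and none held TGGTGGT. The *Il2rb* peak overlapped a Zbtb1 peak with a score of 60.9, and the *Cacna1b* peak a Cbfa2t3 peak with a score of 47.4, while the *Ccr9* peak overlapped no Zbtb1 peak. Over all windows of this length, TGTGGT was found on either strand in 41.3% of 5890 Zbtb1 windows and 43.7% of 6070 Cbfa2t3 windows, and TGGTGGT in 15.8% and 7.02%.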

How the data were processed

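QuantSeq 3′ libraries were sequenced as 75-base single reads. Per the labels and the study's methods, the authors trimmed with fastp, aligned with STAR to mm10 and counted per Ensembl gene, without stating strand. The deposited values, named TPM by the authors, are reads scaled to the same total, without division by gene length, and are therefore CPM. All values came out as whole reads (tolerance 0.3 reads), and 1 line without a gene was left out. The deposited peak scores are normalized tag counts from HOMER after Bowtie 1.1.1, with 1 list per factor holding 5898 Zbtb1 and 6077 Cbfa2t3 peaks found in both of 2 replicates, the lowest scoring 15.0 and 20.6. Peak distance to the nearest start site and annotation were those deposited by the authors. sgRNA sequences are not printed, and 1 gene that met the naming rule is not reported here.

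Groups and replicate numbers were taken from the labels. Genes averaging over 1 TPM in the 6 libraries were fitted with limma 3.58.1 (R 4.3.3; trended variance, two-sided moderated test) on log2(TPM + 1), and p-values were adjusted by Benjamini-Hochberg over all 11427 genes. Fold changes are sgZbtb1 minus sgCbfa2t3 on that scale, where changes of low genes are understated. Ratios are of means or of reads, with 95% exact counting intervals. With 3 against 3 libraries an exact permutation test cannot go below p = 0.1, so none was run per gene. Alternatives were edgeR 4.0.16 (quasi-likelihood) and DESeq2 1.42.0 on the recovered reads, other filters, pseudocounts and scalings, and all 15 libraries in the fit. Unlogged values with an ordinary Student's t-test, a replicate block and leaving out each library were further alternatives.

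Genes named were the targeted genes, *Bcl11b*, *Bcl11a*, *Gata3*, *Tcf7* and *Bcl2*, the 12 largest non-overlapping called changes each way averaging over 10 TPM in at least 1 group, and up to 4 members of each of 26 lists. Others are said to have been named after their values were seen. The comparison, its members and the lists were chosen with earlier results of these data known. Of the list members, 1 was not found in the table. Gene positions and exons came from GENCODE vM21 (GRCm38), in which 55154 of 55421 identifiers were found. No motif was tested for enrichment. Scripts were tested on simulated data, and used Python 3.11.15, pandas 2.3.3, scipy 1.17.1 and pysam 0.24.0.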

Additional observations from a re-analysis of the deposited data

How the results depend on the processing

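All 134 called genes kept their sign in each setting in which they were tested. The number called was 105 to 136 with another expression filter, a pseudocount of 0.1, median-of-ratios scaling, all 15 libraries in the fit or edgeR. It was 80 with DESeq2 (26 higher in sgZbtb1 and 54 higher in sgCbfa2t3). On unlogged values an ordinary Student's t-test, without the moderated variance of limma, called 0 (0 in each direction). This t-test put 985 genes at an unadjusted p under 0.05. Scale and test changed together here, and the cause was not tested. Leaving out 1 library at a time gave 83 to 131 calls with fewer samples, 21 to 55 higher in sgZbtb1 and 56 to 76 higher in sgCbfa2t3, and 91 to 125 DEGs, the lowest counts of calls coming without an sgZbtb1 library. DEGs numbered 56 when only genes averaging over 10 TPM were tested, and 108 with a pseudocount of 0.1.

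Among the 47 named genes that were called, the call was lost in 67 of 282 fits without 1 library and in 43 of 413 fits with other settings, with no change of sign. Of the other 26 named genes, 1 changed sign, *Bcl11a*, whose log2 fold change ran from −0.34 without sgZbtb1 replicate 2 to 0.026 without sgZbtb1 replicate 3. Called genes with a Zbtb1 peak numbered 43 with a score of at least 30, and those with a Cbfa2t3 peak 37 within 10 kb of the promoter, since fewer peaks were kept.

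The replicate numbers showed no sign of pairing the libraries. Deviations from the group means correlated at 0.01, −0.01 and 0.03 across genes between libraries of the same number. The value of −0.01 between different numbers follows from centring each group on its mean, so it is no separate comparison. A fit with the replicate number as a block called 148 genes, the 134 among them. The labels do not say whether libraries of the same number were made together. Depth limited genes under about 3 reads per library, *Tcf7* among them.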
